A study of Schizosaccharomyces pombe with 2 samples.

Results

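Close convergent gene pairs are neighbours that are transcribed towards each other, one on each DNA strand, so that their 3′ ends meet. In this account they are pairs on the 3 chromosomes of fission yeast (Schizosaccharomyces pombe), tRNA genes left out, whose stop codons end 1 to 250 nt apart. The rule found 367 such pairs (734 genes) among 1404 convergent neighbours. Of these, 232 pairs (464 genes) had at least 50 reads for both genes in both replicates and are described as measured pairs. In the other 135 pairs, 1 gene (112 pairs) or both genes (23 pairs) had fewer reads. No value of the poly(A) site positions entered the rule.

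The data come from 3′ READS, a sequencing method that captures the junction of an mRNA with its poly(A) tail, so that each read marks a site of cleavage and polyadenylation. Wild-type cells (source name FWP9) in exponential growth at 30 °C in YPD, which is a rich medium, gave 2 libraries called replicates A and B. These are 1 group without a treatment or mutant, so the comparisons are between pairs, and the labels do not say whether A and B are separate cultures; their spread may be technical. The windows of all features held 50977384 reads in A and 54749254 in B, and the member genes took 4.69% and 5.25% of them.

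When RNA polymerase II has passed the poly(A) signal of a gene, the nascent RNA is cut downstream of it and receives a poly(A) tail, and the polymerase runs on until it is released. In a compact genome the convergent partner lies within reach of that process, and each mRNA can contain sequence antisense to the 3′ untranslated region (UTR), or even to the coding sequence, of the other. In fission yeast, overlapping convergent transcripts have been studied as a source of double-stranded RNA and in relation to heterochromatin and cohesin. The core signal upstream of a cleavage site is an A-rich hexamer, of which AATAAA is the canonical form.

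The ends of 5 pairs are shown first because they cover the arrangements found: ends on the same base, ends interleaved between the stop codons, 1 or both mRNAs running into the coding sequence of the partner, and ends kept well apart. Each line holds the 30 bases, 5′ to 3′ on the strand of the gene, that end with its most used poly(A) site, from RefSeq assembly ASM294v3. Capitals mark AATAAA, or else the single-base variant of it nearest to the site, lying 10 to 40 nt before the site, and a sequence without capitals had neither. 
mrf1 (+ strand, chrI:571835-571864): aggtacaatAATATAtggtggtcaaacttc
rga8 (− strand, chrI:571864-571893): catatacctAATAAAcatttttctctatag
vps52 (+ strand, chrII:2761173-2761202): tattaacatatAATAAAttacgttttattc
cdc10 (− strand, chrII:2761223-2761252): gaaatAATTAActactttaatttttttctt
bun107 (+ strand, chrI:418423-418452): atgtacAATAAAatcaagttttcaacctgt
dcc1 (− strand, chrI:418147-418176): gctatagctataatccataattttctgagc
tlg1 (+ strand, chrII:2394624-2394653): ttagttttacAATACAttgacatctatcat
ccp1 (− strand, chrII:2394431-2394460): tacaaTATAAAgatttagttacagcacaat
prp2 (+ strand, chrII:1015149-1015178): tagggtAATAATatcagtatttctcattgg
tif1102 (− strand, chrII:1015298-1015327): ttacaaaaAATACAtatattaagaatcctt

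In most measured close pairs the 2 mRNAs overlapped at their mean ends. Mean ends crossed, meaning that the mean poly(A) site of each gene lay beyond that of its partner, in both replicates in 135 of 232 pairs. That is 58.2% of the close pairs, against 22.9% of pairs whose stop codons are 251 to 400 nt apart (67 of 293). In single replicates the count was 144 in A and 140 in B. With median positions in place of means, 127 of the 232 pairs crossed in both replicates. With the most used positions it was 114, which is no longer most of the pairs. The mean ends stayed apart in both replicates in 83 close pairs, and the replicates disagreed in 14. Distance enters this measure directly, since ends at the same positions after their stop codons cross more easily where the gap is short. No test of the difference was made. A read counts for the gene whose 400 nt window on its strand holds it. Ends of other transcripts inside the window cannot be told apart from those of the gene.

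The shared length is the number of genome bases that the 2 transcripts have in common at their mean ends, with introns counted. A negative value stands for bases left between them. Where introns lie in the shared stretch, the spliced mRNAs have fewer bases in common. The median shared length over close pairs was 24.3 nt (25.3 nt in A and 16.9 nt in B), against −48.6 nt in the pairs 251 to 400 nt apart (−50.1 nt in A and −45.8 nt in B). Close pairs spanned −131 to 472 nt, with quartiles of −28.3 and 74.6 nt. The 135 crossing pairs shared a median of 62.7 nt (quartiles 35.5 and 132 nt); 48 of them shared over 100 nt and 23 over 200 nt. The 83 separate pairs left a median gap of 46.1 nt, and 9 left over 100 nt. Between replicates the shared length of a pair differed by a median of 9.35 nt and by at most 142 nt.

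The number of reads and the spread between replicates moved with these values. Mean ends crossed in 66 of 105 pairs whose weakest gene had 50 to 199 reads (62.9%), in 63 of 110 with 200 to 999 reads (57.3%) and in 6 of 17 with 1000 or more (35.3%). Among the 111 pairs in which both genes had mean positions within 10 nt between replicates, 51 crossed (45.9%) and the median shared length was −11.1 nt, a reversed sign. These 111 pairs had stop codons a median of 196 nt apart, against 186.5 nt over all 232. Of the 17 pairs with most reads, 16 lie 151 to 250 nt apart. At that distance the shares crossing were 46.3% (31 of 67), 44.4% (32 of 72) and 31.2% (5 of 16) in the same order of reads. The part of depth and of replicate spread in the overall share was not tested.

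Both the share of crossing pairs and the shared length were lower in bands of larger stop codon distance. At 1 to 50 nt all 14 measured pairs crossed, with a median shared length of 225 nt. At 51 to 100 nt, 26 of 27 pairs crossed (96.3%) and at 101 to 150 nt 27 of 36 (75%), with medians of 81.8 and 51.2 nt. At 151 to 200 nt the share was 47.5% (29 of 61) and the median shared length 0.316 nt, and at 201 to 250 nt they were 41.5% (39 of 94) and −14.6 nt. Beyond the close pairs the share was 33.3% at 251 to 300 nt and 16.5% at 301 to 400 nt. Median gene positions in the same order of bands were 105, 82.3, 80.4, 88.3, 96.2, 116 and 129 nt after the stop codon. The nearest pairs were measured least often, 42.4% of the 33 pairs at 1 to 50 nt against 85.0% of the 214 at 301 to 400 nt, so the shortest band describes a smaller part of its members. At the limit of the rule, the 2 measured pairs at 250 nt had shared lengths of −11.0 nt (enp1/slh1) and −46.8 nt (jmj4/str2), and the 3 at 251 nt had −12.6, −46.2 and −78.9 nt.

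**Figure D1:**
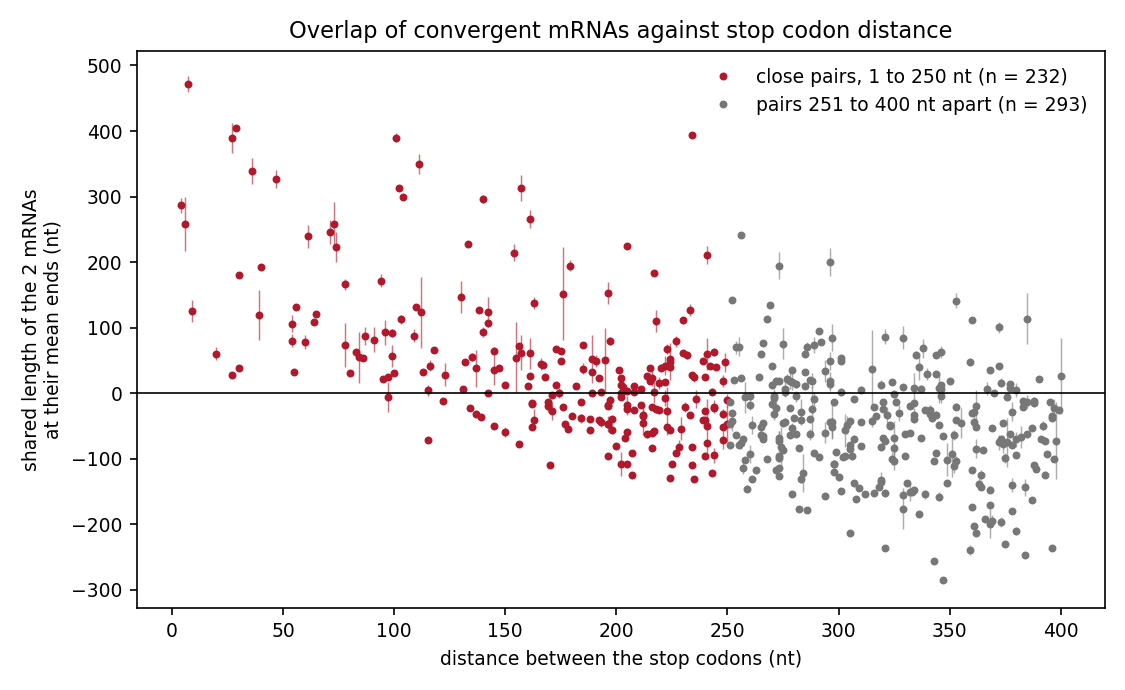
Shared length of the 2 mRNAs of a pair at their mean ends (vertical axis, nt; negative values are bases left between the ends) against the distance of the stop codons (horizontal axis, nt). Points are means of replicates A and B, vertical lines run to the 2 replicate values, and pairs 1 to 250 nt apart (n = 232) span −131 to 472 nt.

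**Figure D2:**
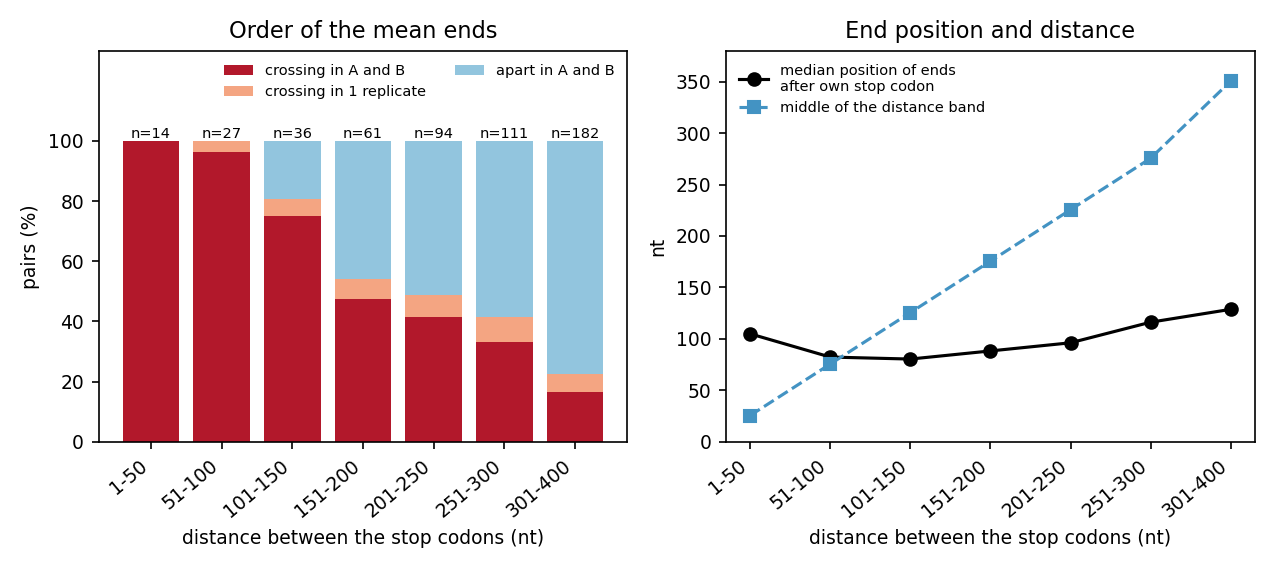
Left, percent of measured pairs whose mean ends crossed in both replicates, in 1 replicate or in neither, by band of stop codon distance (nt); the share crossing in both is 100% at 1 to 50 nt and 16.5% at 301 to 400 nt. Right, median position of the ends after their own stop codon (circles, nt) with the middle of each band (squares); the positions run between 80.4 and 129 nt.

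The ends of close pair genes lay nearer to the stop codon, in the median, than those of other genes. Their median mean position was 89.5 nt (quartiles 59.3 and 131 nt), against 121 nt for genes of pairs 251 to 400 nt apart and 143 nt for all 3818 measured protein-coding genes. The + strand genes (median 91.7 nt) and the − strand genes (88.7 nt) lay close together. The span between the 10th and 90th percentiles of the reads of a gene had a median of 49.5 nt in close pairs and 62.5 nt over all measured genes. The most used site took a median of 45.8% of the reads of a gene in close pairs and 44.8% over all measured genes. Across the 232 pairs, which share libraries and window length, the mean position of the + gene and that of the − gene had r = −0.0147 and rho = −0.0575. For the + gene's position against the stop codon distance the values were r = −0.0687 and rho = 0.0564, and for the − gene's r = 0.0787 and rho = 0.155. The 2 ends of a pair thus showed little linear relation to each other in close pairs, while pairs 251 to 400 nt apart gave r = −0.279 for the same 2 positions.

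Judged by distributions of reads instead of means, the ends of some close pairs were exchanged, with reads outside the 10th to 90th percentiles left out. The 10th to 90th percentile ranges of the 2 genes lay in crossed order without touching in both replicates in 66 close pairs (28.4%), against 5.46% of the pairs 251 to 400 nt apart (16 of 293). They lay apart in the uncrossed order in 26 close pairs (11.2%), against 33.4% (98 of 293). The ranges overlapped in both replicates in 97 close pairs, and the order differed between replicates in 43. Taking all combinations of 1 read of each gene, a median of 64.3% of combinations in a close pair gave RNAs with at least 1 base in common (66.7% in A and 61.8% in B), against 18.9% in the wider pairs. This share was over 90% in both replicates in 72 close pairs and under 10% in 34. Stop codon distance enters these comparisons with the wider pairs directly, and no test of the differences was made.

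Some mRNAs reached the stop codon of the partner, meaning here that their reads ended within it or past it. In 74 of 464 genes (15.9%), over 50% of the reads did so in both replicates. Among genes of pairs 251 to 400 nt apart the share was 1.71% (10 of 586). Distance and the 400 nt window enter this comparison directly, since wider pairs leave fewer window positions at or past the partner's stop codon. At 1 to 50 nt, 25 of 28 genes passed 50%, and no test of the difference was made. The 74 genes were 36 + strand and 38 − strand genes in 55 pairs: in 19 pairs both genes passed that share, and in 36 pairs 1 gene did. In 80 crossing pairs neither gene did. The most used site of the 74 genes lay in a coding exon of the partner in 60, in an intron in 11 and between the stop codons in 3. Coding exons here include the stop codon, and the site of rrn7, for example, lay inside the stop codon of spc24. At the other end, 131 genes had no read within or past the partner's stop codon in either replicate, and the median gene had 0.896% of its reads there. The 19 pairs with both genes over that share had stop codons 4 to 234 nt apart (median 40 nt), but replicate means lay within 10 nt for both genes in only 3 of them.

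**Figure D3:**
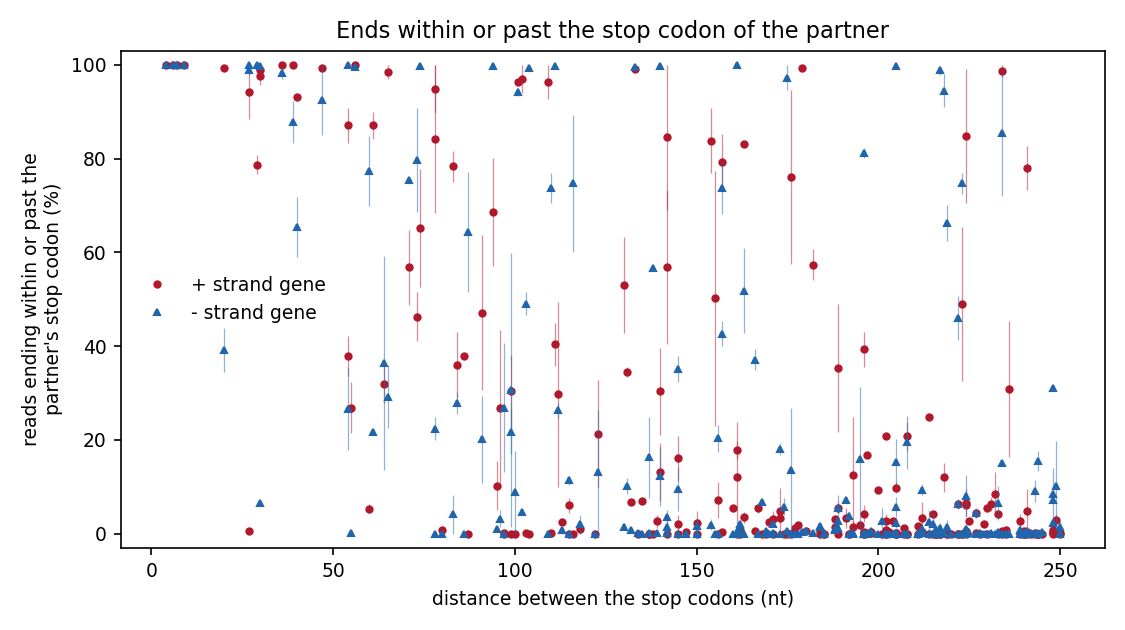
Percent of the reads of a gene that ended within or past the stop codon of its convergent partner (vertical axis) against the distance of the stop codons (horizontal axis, nt) for the + strand genes (circles) and − strand genes (triangles) of 232 close pairs. Points are means of replicates A and B with lines to the 2 replicate values; in the pairs less than 10 nt apart the points lie at 100%.

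The pairs with the longest shared length among those with close replicates mostly had 1 short and 1 long 3′ UTR. The leading pair was bun107, which encodes a WD repeat protein, and dcc1, a subunit of the Ctf18 replication factor C complex that acts in sister chromatid cohesion. Their stop codons end at bases 418371 and 418475 of chromosome I, 104 nt apart. bun107 had 343 and 474 reads in A and B with mean positions of 74.0 and 76.3 nt, and no read reached the stop codon of dcc1. dcc1 had 5195 and 3195 reads with means of 329 and 326 nt, and 99.9 and 98.7% of them ended within or past the stop codon of bun107. Taken as ends of these 2 mRNAs, the positions gave shared lengths of 300.3 and 299 nt in A and B. The average was 299.9 ± 0.603 nt (SD, n = 2). The dcc1 site printed above lies in a coding exon of bun107, and no hexamer preceded it.

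In tlg1 and ccp1, 133 nt apart on chromosome II, the most used site of each gene lay in the other gene. The site of ccp1 lay in a coding exon of tlg1, and that of tlg1 in an intron of ccp1. tlg1, a SNARE protein of vesicle fusion, had 112 and 111 reads in A and B with means of 213 and 211 nt. ccp1, a chaperone that removes the centromeric histone CENP-A, had 3361 and 3716 reads with means of 149 and 148 nt. The reads within or past the partner's stop codon were 99.1 and 99.1% for tlg1 and 99.5 and 99.6% for ccp1. The shared length was 228 ± 2.39 nt (SD, n = 2), with intron bases counted. Both replicates gave the same order, and nearly all read combinations shared at least 1 base.

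The other 3 of these pairs were mrh5/rns1, mms19/sil1 and arh1/cbc2. mrh5, annotated as an RNA helicase, and rns1, a putative RNA-binding protein, are 205 nt apart and shared 223 and 225 nt in A and B; the means were 74.1 and 79.1 nt for mrh5 and 353 and 349.8 nt for rns1. arh1, a mitochondrial ferredoxin reductase, and cbc2, of the nuclear cap-binding complex, are 217 nt apart and shared 179 and 188 nt; cbc2 ended at 358 and 366 nt, close to the limit of the 400 nt window, and longer forms were not measured. In both pairs the long mRNA was that of the − gene. mms19, a regulator of the transcription factor TFIIH, and sil1 are 40 nt apart and shared 196 and 189 nt. The most used site of sil1 was at 371 and 14 nt in A and B, so the most used site differed between replicates.

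The 5 pairs with the widest gap between mean ends, which follows from their positions, were led by ypa1/lip2. ypa1, a regulator of protein phosphatase 2A, and lip2, a lipoate-protein ligase, are 235 nt apart and ended 135 and 127 nt from each other in A and B. lip2 ended at 14.6 and 16.9 nt and ypa1 at 84.0 and 90.2 nt, with 225 and 89 reads for ypa1. prp2, the large subunit of the splicing factor U2AF, and tif1102, similar to translation initiation factor eIF1A, had a shared length of −129.7 and −129 nt, at 58.8 and 58.0 nt and 34.5 and 36.0 nt. The 3 further pairs were isa2, for iron-sulfur cluster assembly, with the proton pump subunit vma7 (gap 125 and 125 nt), the histone chaperone abo1 with the lipase ptl2 (121 and 121 nt), and the histone deacetylase hos2 with the phenylalanyl-tRNA ligase subunit frs2 (108 and 111 nt). In all 5 pairs at most 2.92% of the reads of either gene reached the partner's stop codon. Every pair kept its gap to within 10 nt between replicates. That follows largely from the choice among pairs with replicate means within 10 nt for both genes.

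**Figure D4:**
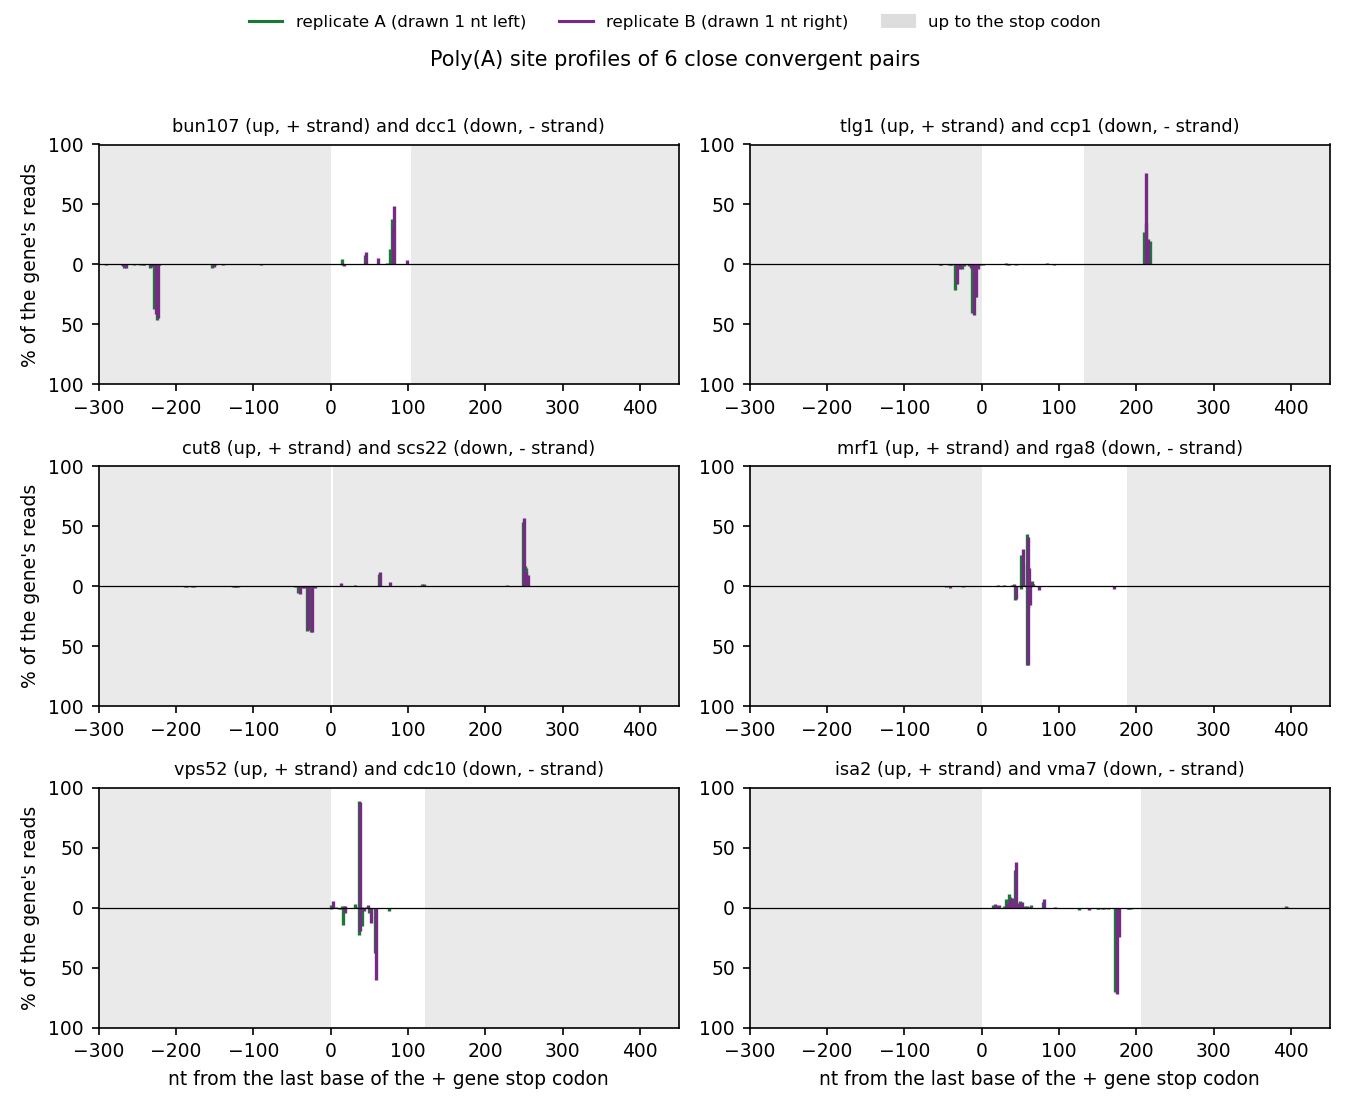
Percent of the reads of a gene at each position, + gene upwards and − gene downwards, for 6 close pairs in replicates A and B (drawn 1 nt to the left and right); the horizontal axis is nt from the last base of the + gene stop codon and grey marks the stretches up to each stop codon. dcc1, ccp1, tlg1 and both genes of cut8/scs22 end within or past the partner's stop codon, mrf1 and rga8 end on the same base, and isa2 and vma7 end apart.

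The 2 genes of a pair rarely used the same bases as ends. The choice of bases limits such sharing, because no most used site lay on an A of its own strand. In close pair genes 57.1% of these sites were a T, which is an A on the partner's strand. Such a base could not be the most used site of both genes. The part of this limit in the low overlap was not tested. The overlap of the 2 end profiles, the summed smaller share at each genome base, was 0 in both replicates in 137 of 232 close pairs and under 1% in 169. Among the pairs 251 to 400 nt apart it was 0 in 163 of 293 and under 1% in 223. It was over 10% in both replicates in 5 close pairs (2.16%), against 0.683% of the wider pairs (2 of 293). The most used sites of a pair lay within 5 nt of each other in 8 pairs, within 10 nt in 19 and within 20 nt in 39, and on the same base in 1.

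That pair was mrf1, encoding a peptide chain release factor, and rga8, 189 nt apart on chromosome I. The most used site of both lay at base 571864. It took 43.4% and 40.8% of the reads of mrf1 in A and B and 65.5% and 65.5% of those of rga8. mrf1 had 4305 and 4836 reads, rga8 647 and 749 reads, and the profile overlap was 45.5 and 40.8%. The mean ends met at a shared length of 1.87 and −1.81 nt, so the order differed between replicates. Each gene had its own hexamer on its own strand, AATATA for mrf1 and AATAAA for rga8, with the first base 20 nt before the shared site.

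The next pairs by overlap had different most used sites, and their overlap came from reads on bases that both genes used. npa3, a GTPase, and the uncharacterized SPBC119.16c had overlaps of 25.9 and 18.8%, and their most used sites over both replicates were the adjacent bases 749193 and 749194 of chromosome II. vps52, a subunit of the GARP tethering complex, and cdc10, a subunit of the MBF transcription factor that acts at the start of S phase, had overlaps of 22.2 and 19.3%. vps52 placed 89.0% and 88.1% of its reads on 1 base, and cdc10 placed 22.2 and 19.3% on that base and others on both sides of it. The mean ends of vps52 and cdc10 stayed apart (shared length −7.69 and −14.6 nt in A and B), and 36.5 and 22.7% of read combinations shared a base. spp42, a U5 small nuclear ribonucleoprotein protein, and sea2, of the SEACAT complex, had overlaps of 8.87 and 18.6%, with sea2 resting on 406 and 199 reads. The 5 pairs with an overlap above 10% in both replicates were mrf1/rga8, npa3/SPBC119.16c, vps52/cdc10 and, named after their values were seen, mbx1/ppr3 (17.6 and 20.2%) and pga3/rrp3 (11.1 and 15.0%).

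In the 3 pairs with the nearest stop codons among those with close replicates, most reads of at least 1 gene reached the partner's stop codon. spc24, a kinetochore protein, and rrn7, a factor of RNA polymerase I initiation, are 27 nt apart and shared 28.5 and 26.5 nt; 97.8 and 99.9% of the rrn7 reads ended within or past the stop codon of spc24 (40.1 and 45.8% without those inside the codon itself), against 1.15 and 0% of the spc24 reads for rrn7. ucp8, a UBA domain protein, and rpl4302, the large ribosomal subunit protein eL43, are 30 nt apart and shared 38.7 and 38.8 nt, with 99.3 and 95.8% of the ucp8 reads and 6.55 and 6.72% of the rpl4302 reads within or past the partner's stop codon. Without the reads inside the codon itself the shares were 62.1 and 61.2% for ucp8 and 0.354 and 0.626% for rpl4302. In these 2 pairs the partner's stop codon was reached mainly in 1 direction. SPAC17C9.11c, a zinc finger protein, and stm1, a G protein-coupled receptor, also 30 nt apart, reached each other's stop codon (98.0 and 100% and 99.4 and 100%) and shared 181 and 179 nt.

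The 3 pairs named for the highest share of reads within or past the partner's stop codon stand for 10 pairs that tied at 100% for at least 1 gene, taken in order of name. In cut8, which tethers the proteasome at the nucleus, and scs22, a VAP family protein, 4 nt apart, the means were 226 and 209 nt for cut8 and 75.2 and 69.0 nt for scs22, and the shared length was 298 and 275 nt. In SPBC16H5.14c, a dehydrogenase, and wdr54, 6 nt apart, the shared length was 217 and 300.1 nt. All reads of both genes in these 2 pairs ended within or past the partner's stop codon. In fml1, a DNA helicase, and SPAC9.06c, a dehydratase, 27 nt apart, all SPAC9.06c reads did so and 100 and 88.5% of the fml1 reads, and the shared length was 412 and 367 nt. The profile overlap of 0 in all 3 pairs follows from this choice, because ends are counted only after a gene's own stop codon. The shared lengths differed between replicates by more than 10 nt in each pair.

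In the 2 pairs with the largest distance among those with close replicates the mean ends stayed apart. pla1, the poly(A) polymerase itself, and erg9, squalene synthase, are 248 nt apart and left 24.4 and 37.9 nt between mean ends in A and B. rrp42, an exosome subunit, and bag101, a chaperone regulator, left 54.1 and 47.3 nt. Of the pairs with most reads in the weaker gene, again among those with close replicates, isa2/vma7 was given above and the other 2 also stayed apart. The genes met14, for adenylyl-sulfate kinase, and SPAC1782.12c left 34.9 and 35.2 nt. The nucleoporin nup155 and the arginine methyltransferase rmt1 left 81.0 and 83.6 nt. In these 4 pairs 4.70 to 17.6% of read combinations still shared a base.

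The gene with more reads was not regularly the one with the longer 3′ UTR. The order of reads was the same in both replicates in 214 pairs, and the gene with more reads ended farther from its stop codon in 103 and nearer in 111. In the pairs 251 to 400 nt apart it ended farther in 127 and nearer in 144 of 271. Of 7 measured pairs holding a gene with an rpl, rps or rpp symbol, 4 crossed and 3 stayed apart, and 1 of those apart holds rpp40, an RNase P protein that the symbol search caught. Of 9 pairs with a mitochondrial ribosomal protein gene, 7 crossed and 2 stayed apart. Of 3 pairs with a gene from the list used for cleavage and polyadenylation, rna15/mrpl9 crossed (88.4 and 68.0 nt in A and B). The pairs cid14/gms2 and pla1/erg9 stayed apart. However, cid14 encodes a poly(A) polymerase of nuclear RNA surveillance and not a subunit of the cleavage machinery. Over all close pairs the share was 58.2%. Duplicated ribosomal protein genes can have near-identical copies, and how reads matching several places were handled is not given in the sources used here.

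The genes of RNA interference and heterochromatin gave 1 measured close pair, too few for a comparison with other genes. Of 21 genes of that list, 5 lie in close pairs and 1 pair was measured, arb2/crb3, with a shared length of 2.03 and −7.45 nt in A and B. Among all features on the chromosomes, tRNA genes left out, 734 of 5147 lie in close pairs, and 232 of 367 close pairs were measured. Whether the list differs from these shares was not tested. The Dicer gene dcr1 lies 21 nt from spn6, a septin gene, but spn6 had 5 and 0 reads and dcr1 25 and 0 reads in A and B, so the order of their ends could not be measured.

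Most of the measured overlaps were shorter than annotated ones. The gene coordinates deposited by the authors give 3′ UTRs for both genes in 221 of the 232 pairs. In 204 of these the annotated mRNAs overlap, and the median annotated shared length is 619 nt over the 221. Of the 204, mean ends crossed in both replicates in 122 and stayed apart in 70. Of the 17 pairs annotated as apart, 5 crossed. Only 400 nt after the stop codon were measured, and the 90th percentile of the reads lay past 390 nt in 3 member genes. In 95 pairs RefSeq places a noncoding gene on the strand of a member gene inside its window. Mean ends crossed in 44 of these (46.3%) and in 91 of the 137 without one (66.4%). The stop codons were a median of 196 nt apart in the 95 pairs and 177 nt in the 137. The part of noncoding transcripts and of distance in this difference was not tested.

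A hexamer of the poly(A) signal preceded most sites of close pair genes. AATAAA or 1 of its 18 single-base variants, searched on the strand of the gene with all its bases 10 to 40 nt before the most used site, was found in 356 of 464 genes (76.7%), against 71.4% of all 3818 measured genes. The 19 hexamers can overlap one another, and 36.1% of all windows of the same length downstream of stop codons hold at least 1. AATAAA itself preceded 23.3% of the sites of close pair genes and 20.7% of all sites, with 4.95% of all windows. Genes of crossing pairs had a hexamer in 79.3% of cases and genes of separate pairs in 74.7%. Both genes had one in 133 pairs, 1 gene in 90 and neither in 9. The 40 bases upstream of the site were 76.2% A or T in close pair genes and 75.1% in all, and the 40 downstream were 72.4% and 72.6%.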

How the data were processed

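Poly(A) sites of 2 wild-type libraries were measured by 3′ READS. Alignment used Bowtie, per the submitters' processing notes, with version, settings and build not given there or in the labels. Per the file headers, the authors deposited a table per replicate, and a merged one not used here, with read signal values per feature and, at each of 400 positions after the stop codon, the level in percent of the highest position. The deposited signal was scaled: 100% of 1945 values in A and 2079 in B of at most 100 reads were whole multiples, within 0.1, of a step of 0.930 and 0.869, by which it was divided to give reads.

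Positions count from 1 after the stop codon. All 734 member IDs matched RefSeq assembly ASM294v3, and all 464 measured genes ended in a stop codon there. Sites for sequences and hexamers came from the reads of both replicates added up. Values were computed per replicate with Python 3.11.15, numpy 2.4.6 and pandas 2.3.3 and averaged; scripts were tested on simulated data. With 1 group no test was made. Reads are not independent molecules, and their number gives counting error only.

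Members and lists were chosen with earlier results of these data known. Named pairs with replicate means within 10 nt for both genes were the 5 with the longest shared length, the 5 with the widest separation, the 4 with the highest profile overlap, the 3 nearest and 2 farthest, and the 3 with most reads in the weaker gene. Added to these were the 3 with the highest share within or past the partner's stop codon, ties in order of name, and any pair with nmt2, avn2, ago1, dcr1, rdp1, clr4, swi6, ura4, act1, cdc2 or tdh1, of which dcr1 alone is in a close pair. The read minimum, window, position measure, distance rule and replicates were varied.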

Additional observations from a re-analysis of the deposited data

How the results depend on the processing

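The counts moved with the number of reads asked for and with the spread between replicates. With at least 200 reads, 127 pairs were left, mean ends crossed in 69, the median shared length was 13.1 nt, the median share of crossing combinations 57.0%, the genes with most reads within or past the partner's stop codon numbered 44, and a hexamer preceded 77.4% of sites. With at least 10 reads, over 290 pairs, the shared length was 32.8 nt and the share of crossing combinations 78.4%. In the 111 pairs with close replicates, a setting chosen after seeing the data, these were −11.1 nt (reversed from 24.3 nt), 42.7%, 51 crossing pairs and 16 genes with most reads within or past the stop codon; the cause was not tested. In the 137 pairs without an annotated noncoding gene in a window, also chosen after seeing the data, they were 38.1 nt and 81.1%. The shared length was 15.8 nt at the most used positions and 15.0 nt for positions 1 to 300. At the most used positions 114 of 232 pairs crossed, and at median positions 127. The median profile overlap of 0% became 3.55% in bins of 10 nt and 6.89% in bins of 20 nt. Hexamers all within 10 to 30 nt preceded 67.9% of sites, and AATAAA alone 23.3%. With 1 replicate left out, the share of crossing combinations was 63.7% or 69.7%, the hexamer share 76.9% or 77.4%, the shared length 22.0 or 28.5 nt, and crossing pairs numbered 150 or 170 of the 246 or 264 then measured. Counting the convergent pairs with overlapping open reading frames too, again chosen after seeing the data, gave 140 crossing pairs of 237. Without reads that ended inside the stop codon itself, likewise chosen after seeing the data, 67 genes instead of 74 had most reads past it. Adding up the reads of both replicates gave 141 crossing pairs and a shared length of 24.7 nt. The authors' merged table was not run. No paired analysis was possible because there is 1 group and no result comes from a test. Ends beyond 400 nt were not measured, and pairs under 50 reads are not included.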

Other observations

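Longer shared stretches than those of the 5 pairs named for their length occurred where replicates differed by more than 10 nt in at least 1 gene. These pairs were picked after their values were seen. The kinase gene spk1 and hem4, for a step of heme synthesis, 7 nt apart, shared 484 nt in A and 460 nt in B. The SNARE gene vti1 and dad4, of the DASH complex at kinetochores, 29 nt apart, shared 405 nt in both A and B. wip1, a CENP-W family protein of the centromere, and arc5, of the actin-organizing ARP2/3 complex, 101 nt apart, shared 397 nt in A and 383 nt in B. At 234 nt, SPAC12G12.16c, a nuclease, and sif3 shared 389 nt in A and 397 nt in B. The profile overlap was 0 in all 4 pairs. Overlap is hardly possible where nearly all reads of a gene end within or past the partner's stop codon.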
